A study of Mus musculus with 8 samples.

Results

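The regions described here are the places in the genome where acetylated histone H3 (H3ac) was called in every one of 3 time points of a mouse embryonic stem cell differentiation series. They were selected on measured values: a day 4 H3ac peak on chromosomes 1 to 19 or X was taken when it overlapped, by at least 1 bp, both a day 2 and a day 6 H3ac peak. Of 12943 day 4 peaks, 4670 met the rule (36.1%). Of the other 8273, 3597 were shared with day 2 only, 1091 with day 6 only and 3585 with neither day. Because the rule used the 3 H3ac lists, overlap between days, peak width and H3ac score are given below as a description, and the measures that the rule did not use are gene position, gene function, promoter sequence and HDAC1.

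Acetylation of lysines in the tail of histone H3 loosens chromatin and is recognised by bromodomain proteins, and the mark is known from the promoters and enhancers of genes that are transcribed or ready to be. Acetyl groups are placed by acetyltransferases such as p300 and removed by deacetylases such as HDAC1, a class I enzyme that works inside the Sin3, NuRD and CoREST complexes. Promoters rich in CpG dinucleotides, which belong mainly to genes that most cell types use, are typical carriers of the mark.

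Chromatin immunoprecipitation with sequencing (ChIP-seq) was done on cells differentiated from embryonic stem cells of strain 129/Ola, which were grown on a gelatin coat in N2B27, a serum-free medium in which many cells take a neural path. The antibody against acetylated H3 was used on day 2, day 4 and day 6, and an anti-FLAG antibody was used on day 2 for HDAC1 that carried a FLAG tag (labelled 3 FLAG-HDAC1). The labels do not say how the tagged protein was expressed. With 1 ChIP and 1 input library per target and day, no difference below has a replicate check, and the intervals in parentheses (95%, Wilson) cover counting error only. On the chromosomes used there were 17357 H3ac peaks for day 2, 12943 for day 4 and 5549 for day 6, and 5282 HDAC1 peaks. Peak scores are the authors' own on a scale that is not stated, and they serve here only to rank peaks within a list. Of the marker genes of these cell states, Pou5f1, a core pluripotency factor, had the day 2 peak ranked 31 and no peak centred within 1 kb of its start on days 4 and 6. Sox1, an early neural marker, had 2 such peaks on day 4 but lacked them on days 2 and 6. Nanog, another pluripotency factor, had none on any day. This count uses peak midpoints, so a wide peak can cover a start without being counted. Sox2 had no such day 6 peak, although a day 6 peak of 10001 bp covered its start.

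The promoters of 5 genes show the kinds of sequence that sit at these regions, chosen by the worst of a region's ranks over the 3 days among promoters holding the motif named: the 2 best for ZBTB33, the best for NRF1 and for ETS, and the best histone promoter with both a CCAAT and a TATA box. They are RefSeq sequences of build GRCm38.p6 from 250 bases before to 50 bases after the gene start. Capitals mark the motif, and positions are of its leftmost base, counted from the gene start. Cct8 encodes a subunit of the chaperonin that folds actin and tubulin, and Ndufa7 a subunit of respiratory complex I whose region also covers the start of the ribosomal protein gene Rps28. Both carry the core motif of ZBTB33 (TCTCGCGA, searched on both strands), a zinc finger protein also called Kaiso. It begins at -82 in Cct8 and at -18 in Ndufa7, where the copy on the other strand begins at -16 and overlaps it. Brd2, which encodes a bromodomain reader of acetylated histones, carries the core of NRF1 (GCGCATGC), a regulator of mitochondrial and housekeeping genes, at -17 and, on the other strand and overlapping it, at -15. Alkbh1 encodes a dioxygenase that acts on nucleic acids, its region also covers the start of Slirp on the opposite strand, and it holds the ETS core (CCGGAAG) at -52 and its reverse complement at -15. H1f5 encodes a linker histone and holds CCAAT boxes (CCAAT, bound by NF-Y) beginning at -168, -66 and -53 and a TATA box (TATAAA) at -28.
Cct8, chr16:87495820-87496119, minus strand: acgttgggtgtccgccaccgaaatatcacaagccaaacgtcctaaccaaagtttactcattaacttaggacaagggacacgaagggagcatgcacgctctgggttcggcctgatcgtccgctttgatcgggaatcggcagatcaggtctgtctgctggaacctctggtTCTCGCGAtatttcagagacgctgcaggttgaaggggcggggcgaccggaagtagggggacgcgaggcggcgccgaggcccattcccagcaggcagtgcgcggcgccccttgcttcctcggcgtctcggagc
Ndufa7, chr17:33824322-33824621, plus strand: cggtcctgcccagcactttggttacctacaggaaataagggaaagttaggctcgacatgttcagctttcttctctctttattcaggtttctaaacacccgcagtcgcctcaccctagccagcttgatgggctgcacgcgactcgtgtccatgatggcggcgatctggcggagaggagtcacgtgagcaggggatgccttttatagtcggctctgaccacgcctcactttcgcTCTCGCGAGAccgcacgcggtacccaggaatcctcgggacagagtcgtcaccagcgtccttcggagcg
Brd2, chr17:34122558-34122857, minus strand: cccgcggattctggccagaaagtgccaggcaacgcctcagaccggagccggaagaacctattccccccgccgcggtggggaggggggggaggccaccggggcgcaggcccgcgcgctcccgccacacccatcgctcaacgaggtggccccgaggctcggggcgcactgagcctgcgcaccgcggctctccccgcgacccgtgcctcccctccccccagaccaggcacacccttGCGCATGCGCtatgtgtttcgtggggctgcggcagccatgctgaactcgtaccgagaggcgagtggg
Alkbh1, chr12:87443790-87444089, minus strand: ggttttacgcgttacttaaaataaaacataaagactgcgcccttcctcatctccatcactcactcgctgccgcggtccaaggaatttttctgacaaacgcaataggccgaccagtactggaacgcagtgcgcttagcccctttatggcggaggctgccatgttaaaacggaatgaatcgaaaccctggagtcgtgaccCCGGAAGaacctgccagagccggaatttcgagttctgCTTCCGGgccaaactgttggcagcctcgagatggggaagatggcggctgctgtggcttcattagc
H1f5, chr13:21780576-21780875, minus strand: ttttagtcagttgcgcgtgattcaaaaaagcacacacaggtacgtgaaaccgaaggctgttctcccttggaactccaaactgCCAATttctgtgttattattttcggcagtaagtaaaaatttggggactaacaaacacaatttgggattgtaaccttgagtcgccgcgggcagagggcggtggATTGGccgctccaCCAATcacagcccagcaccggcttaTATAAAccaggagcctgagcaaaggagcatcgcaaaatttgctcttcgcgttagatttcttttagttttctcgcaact

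The regions stood on 4952 distinct day 2 peaks, 28.5% of the day 2 list, and on 3844 distinct day 6 peaks, 69.3% of the day 6 list. Most of them (88.0%) overlapped 1 day 2 peak, and 560 overlapped more than 1. On day 6 the picture was the reverse: 771 day 6 peaks each held more than 1 of the day 4 regions, and 1608 regions (34.4%) shared their day 6 peak with another. They ranked high in each list. The median rank of their peaks was 24.6% from the top of the day 2 list, 28.1% on day 4 and 43.1% on day 6, against 59.9%, 63.1% and 65.8% for the other peaks of the same lists. At the edge of the rule the smallest overlap inside was 1 bp, with a day 2 peak at the region nearest Eef1b2, and then 2 bp at Clasp2 and 9 bp at Mtcl1. The nearest peaks outside missed a day 2 peak by 0, 1, 4 and 6 bp and a day 6 peak by 8 bp. Only 41 regions (0.878%) shared under 100 bp with the peak of either other day.

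Width differed between the days mainly on day 6. For the 2675 regions with a single, unshared peak on each day, median widths were 877 bp (day 2), 1009 bp (day 4) and 1888 bp (day 6). The day 6 peak was the wider of the pair in 97.4% of these regions when set against day 2, and in 98.4% against day 4, whereas day 4 was wider than day 2 in 61.7%. The median ratio of day 6 to day 2 width was 2.01 (quartiles 1.49 and 2.87), and that of day 4 to day 2 was 1.11. In 89.4% of cases the day 6 peak held the whole day 2 peak. The 3 peaks shared a core of 741 bp in the median. All lists have this difference in width: the peaks outside the regions had medians of 545 bp (day 2), 684 bp (day 4) and 1376 bp (day 6). Each day has 1 library, so day and library cannot be told apart, and read depth, fragment length and the caller's settings were not tested.

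**Figure D1:**
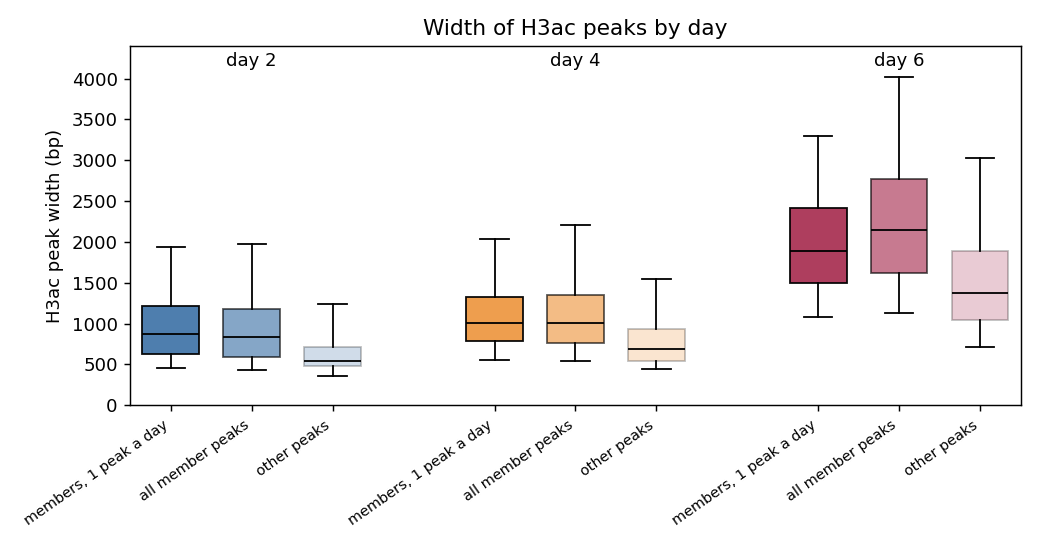
Width in bp (vertical axis) of H3ac peaks on days 2, 4 and 6, for regions with a single unshared peak on each day, for all peaks under regions of all 3 days, and for the other peaks of the same list. Boxes give the median and quartiles and whiskers the lowest and highest 5%; the median of the regions is near 1 kb on days 2 and 4 and 1888 bp on day 6, and other peaks are narrower on each day.

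Around gene starts the acetylated stretch lay on both sides with a dip just upstream of the start on days 2 and 4. Over 3069 protein-coding gene starts with such a region, a day 2 peak covered 52.4% of positions at 400 bp upstream, 46.2% at 100 bp upstream and 83.0% at 500 bp downstream. On day 4 the shares were 51.2%, 48.7% and 87.9%. On day 6 they were 73.5%, 86.8% and 97.0%, with no dip. For 1652 regions with a single peak a day and starts on 1 strand only, the median upstream edge lay at -18.5, -29 and -528 bp on days 2, 4 and 6. The downstream edge lay at 903, 986 and 1373 bp. Both edges lay farther out on day 6, while the midpoint lay at 442, 480.5 and 441 bp.

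Where 1 day 6 peak spanned neighbouring day 4 regions, the stretch between them was short and in 266 of 815 cases (32.6%, 29.5 to 35.9%) held a listed gene start. The gaps, counted on chromosomes with listed gene starts, had a median length of 159 bp, and the middle of the gap was within 250 bp of a start, inside it or beside it, in 57.3% (53.9 to 60.7%). Among gaps of at most 1000 bp the share with a start within 250 bp of the middle was 58.0% (54.6 to 61.4%) under a common day 6 peak, against 47.6% (45.1 to 50.2%) for other neighbouring day 4 peaks. The first set holds only regions of all 3 days, of which 81.7% were at a gene start. The second includes other day 4 peaks, of which 59.7% were, and the part of this in the difference was not tested. An HDAC1 peak reached into 8.34% of the 815 gaps.

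**Figure D2:**
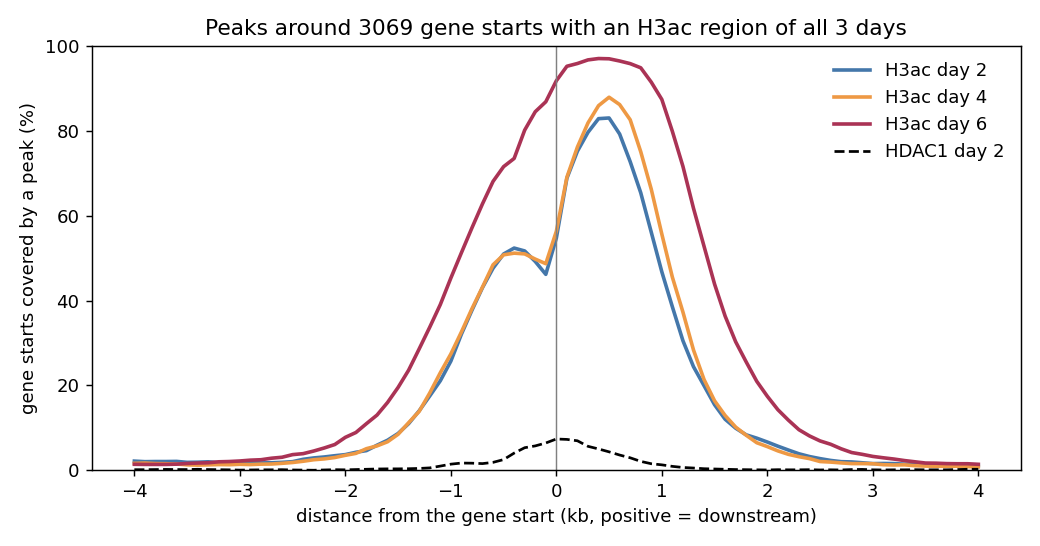
Share of 3069 gene starts (vertical axis, percent) at which a peak covers each position from 4 kb upstream to 4 kb downstream (horizontal axis, kb), for H3ac on days 2, 4 and 6 and HDAC1 on day 2. Days 2 and 4 follow each other with a dip just upstream of the start, day 6 is broader on both sides, and HDAC1 reaches 7.36% at the start.

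The regions that were much wider on day 6 than on day 2 included genes of early development. Across the 3708 genes with a region at the start, 221 (5.96%) had a day 6 peak at least 5 times as wide as their summed day 2 peaks. At Zic2, a zinc finger factor of the epiblast and neural plate, widths on days 2, 4 and 6 were 391, 911 and 8225 bp, a ratio of day 6 to day 2 of 21.0. The ratio was 16.5 at Irx5 and at Irx1, both homeobox genes, and 14.9 at Zeb2, a repressor needed for neural induction, where widths were 356, 1838 and 5322 bp. At Sox2, shared by pluripotent and neural progenitor cells, widths were 946, 1515 and 10001 bp, and at Zic5, a zinc finger gene that neighbours Zic2, they were 694, 1207 and 7644 bp. Of the 4 primed epiblast genes with a region, 3 passed 5 times: Zic2, Sox4 with a ratio of 7.20 and Sox11 with 7.17. The widest day 6 peak at a start belonged to Setd1b, a histone H3 lysine 4 methyltransferase gene, at 10551 bp, against 1310 bp on day 2 and 1415 bp on day 4.

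Genes for RNA-binding proteins were also among those with a large ratio. Of 57 splicing factor genes with a region, 7 reached 5 times, and 6 of these encode hnRNP proteins, which package nascent transcripts. Hnrnpa2b1 had widths of 413, 409 and 6514 bp. Hnrnpu had 967, 885 and 5178 bp and Hnrnph3 797, 1130 and 5062 bp. Hnrnpu had 2 regions at its start, and its day 2 and day 4 widths are those of 1 of them. None of the 67 cytosolic ribosomal protein genes with a region reached 5 times, and their median ratio was 1.42, against 2.01 over all genes with a region. Their day 2 peaks were already wide, with a median of 1993 bp against 1020 bp over all genes with a region. At the low end of the ratio stood Fastkd3, with widths of 2005, 744 and 1088 bp, and then Zfhx3, Reep3, Selenok and Uba2, with ratios from 0.646 to 0.725.

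Some very wide day 6 peaks belonged to regions whose midpoint lay outside the 1 kb window around gene starts. The region nearest Hoxa2, a homeobox gene that patterns the hindbrain, had its midpoint 1088 bp from the start, ranked 16986, 11 and 177 on days 2, 4 and 6, with widths of 504, 6549 and 14297 bp, the last summed over 2 day 6 peaks. Its place near the bottom of the day 2 list stands against its place near the top on day 4. A pair of regions nearest Skida1, with midpoints 1167 and 3331 bp from its start, shared a day 6 peak of 13613 bp, the widest single peak of that day.

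Most regions lay at gene starts. A peak was placed at a start when its midpoint was within 1 kb of a protein-coding gene start listed by RefSeq, or of either end of a gene with no listed start. By this measure 3814 regions (81.7%, 80.5 to 82.8%) were at a start, against 59.7% (58.6 to 60.8%) of the other day 4 peaks and 67.6% of all day 4 peaks. The share was no higher than in day 4 peaks shared with day 2 only, 82.2% (80.9 to 83.4%), and it was above those of peaks shared with day 6 only (63.2%) and with neither day (36.0%). A further 13.6% of regions lay within gene bodies, against 24.3% of other day 4 peaks, and 3.28% outside protein-coding genes, against 13.7%. Exons, introns and UTRs were not separated. The difference in location also went with score. In the lowest-scoring decile of day 4 peaks 80.0% of regions were at a start, against 29.2% of other peaks, while in the highest-scoring decile the shares were 73.4% (70.5 to 76.1%) and 75.9% (71.1 to 80.1%).

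Regions at starts more often faced more than 1 gene. Of those at a listed start, 15.3% (14.1 to 16.6%) had starts on both strands within 1 kb, against 9.79% (8.93 to 10.7%) of other day 4 peaks at a listed start. The midpoint lay downstream of the nearest start in 77.1% of regions, at a median of 414 bp, and in 74.6% of other peaks, at 333 bp.

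In all, 3708 of 21627 protein-coding genes had a region at the start (17.1%), and another 4454 had only other day 4 peaks. Genes that dividing cells need for making proteins, RNA and DNA were marked most often. The share was 67 of 79 cytosolic ribosomal protein genes (84.8%, 75.3 to 91.1%), 57 of 74 splicing factor genes (77.0%, 66.3 to 85.1%) and 28 of 37 DNA replication genes (75.7%, 59.9 to 86.6%). Between 43.6% and 59.0% were reached by genes of the proteasome (23 of 39), aminoacyl-tRNA synthetases (21 of 37), translation factors (37 of 68), mitochondrial ribosomal proteins (41 of 78), replication-dependent histones (30 of 62), oxidative phosphorylation (36 of 82) and chaperones (27 of 62). Histone genes lie in clusters, and their 30 genes shared 18 regions. Lower shares were found for genes of the cell cycle (11 of 29), glycolysis (6 of 19), acetyltransferases and BET readers (4 of 14) and immediate early genes (5 of 24). Zinc finger genes named Zfp had 90 of 397 (22.7%, 18.8 to 27.0%).

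Lists of genes for particular cell fates varied. Of 25 pluripotency genes 3 had a region (12%, 4.17 to 29.96%), Sox2, Sall4 and Tet1, an interval that includes the 17.1% of all genes, and of 13 primed epiblast genes 4 did (30.8%, 12.7 to 57.6%). Of 32 neural progenitor genes 2 did, Dll1, a Notch ligand, and Msi2, an RNA-binding protein, while 14 others of that list had day 4 peaks that were not on all 3 days, among them Sox1, Nes and Hes5. Of 21 neuron genes only Elavl4 did. There was none among 26 mesendoderm genes, 39 Hox genes or 1106 olfactory receptor genes. A count of 0 allows shares of up to 11.5%, 7.69% and 0.271% for these 3 lists, counting error only. Keratin genes (49), adult tissue genes (18), germ line genes (13) and trophoblast genes (12) also had none, which allows up to 6.12%, 16.7%, 23.1% and 25%. The 0 for Hox genes depends on the 1 kb window for midpoints, since the midpoint of the wide region at Hoxa2 lay just beyond it.

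**Figure D3:**
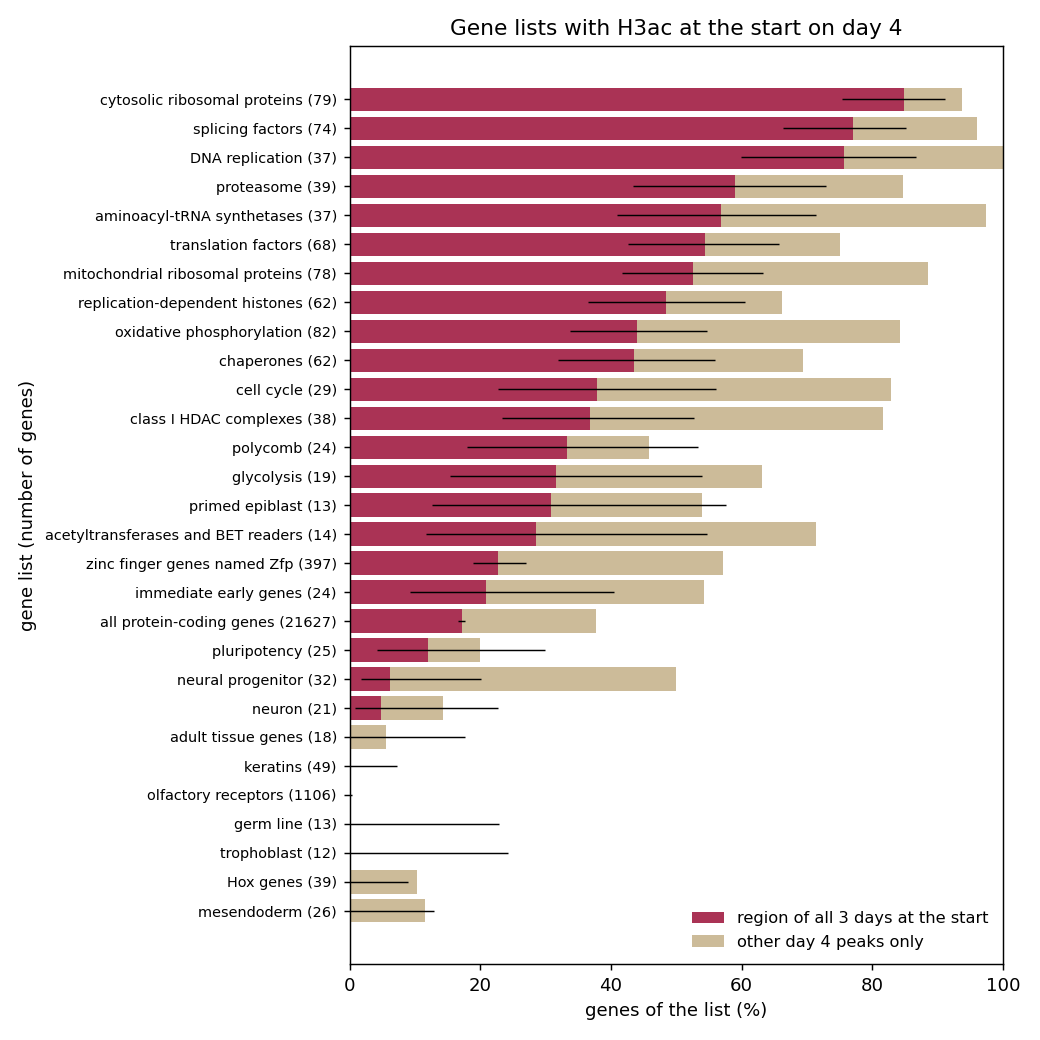
Share of genes in each list (horizontal axis, percent) with a region of all 3 days at the start and with other day 4 peaks only, for lists of 12 or more genes, whose sizes are in parentheses. Black lines are 95% Wilson intervals of the share with a region of all 3 days; ribosomal protein, splicing and DNA replication genes are at the top with 84.8%, 77.0% and 75.7%, and all protein-coding genes stand at 17.1%.

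Within protein synthesis the marked genes covered both ribosomal subunits, the initiation and elongation machinery and the enzymes that charge tRNAs. Rpl4, a protein of the large subunit, ranked 10 on day 2, 130 on day 4 and 7 on day 6, with peaks 2891, 2879 and 3807 bp wide. Rpl19, also of the large subunit, ranked 87, 92 and 106. Rpl13a showed how the call splits a domain. Its day 2 peak, 3599 bp wide and ranked 2, and its day 6 peak, 3977 bp wide and ranked 14, each overlapped a pair of day 4 regions. The region of 2776 bp, ranked 9, spanned the gene start and much of the gene body. The region of 555 bp, ranked 9621, lay upstream of the start and was centred within 1 kb of it. Eif3b, a subunit of an initiation complex, ranked 45, 649 and 111. Eef1a1, which delivers charged tRNAs to the ribosome, ranked 38, 151 and 360. Gars, which charges glycine tRNA, ranked 303, 1185 and 127. Of the cytosolic ribosomal protein genes, 12 had no region centred within 1 kb of the start. Among these, 7 had other day 4 peaks there, such as Rpl3 and Rps15, and 5 had none, such as Rpl31 and Rps10. Some of the 12 had a region centred beyond the window. The region nearest Rpl31 was centred 1062 bp from the start and ranked 239, 266 and 1040, and a region nearest Rpl3 ranked 25 on day 4.

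Among RNA-processing genes, Srsf3, a serine- and arginine-rich splicing factor, ranked 105, 26 and 15. It had the second highest day 4 score of the regions centred within 1 kb of a gene start. The highest belonged to Rabggtb, a subunit of the enzyme that attaches lipid to Rab proteins, which ranked 13, 24 and 9. Regions that cover a start but are centred farther off are not counted, such as that of Rpl13a, ranked 9 on day 4. Hnrnpf ranked 199, 188 and 34. The RNA-binding protein genes Igf2bp1 and Igf2bp3, Ewsr1 of the same broad class, Brd2, Gapdh and Rpl27a completed the 8 highest day 4 scores by this measure. Brd2 ranked 5, 27 and 91, and Gapdh, the glycolytic enzyme, ranked 3, 36 and 1202, so its rank was far lower on day 6.

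DNA replication genes with a region included every subunit of the MCM helicase from Mcm2 to Mcm7, Mcm10, the sliding clamp gene Pcna, and Cdc45, which joins the helicase and ranked 1076, 1401 and 413. Fen1, which trims Okazaki fragments, ranked 886, 1159 and 827. The other 9 genes of that list, such as Cdc6, Lig1 and Rpa1, had day 4 peaks that did not meet the rule. In the cell cycle list Ccnb1, the mitotic cyclin, ranked 512, 745 and 1084, and Aurka, a mitotic kinase, ranked 100, 125 and 1238. Histone genes took a different place in each list: 1 of 30 was in the top 10% of the day 2 list, against 63 of 67 cytosolic ribosomal protein genes and 1154 of all 3708 genes with a region (31.1%), and the 30 histone genes share 18 regions, but on day 6 the region at H2ac10 ranked 16 and that at H4c8 ranked 44.

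Some genes that write, read or remove acetylation were among those marked on all 3 days. Of 14 acetyltransferases and BET readers 4 had a region (28.6%, 11.7 to 54.7%), an interval that includes the 17.1% of all protein-coding genes. Ep300, the p300 acetyltransferase gene, ranked 438, 291 and 104. Hdac1 itself ranked 8793 of 17357, 6775 of 12943 and 4784 of 5549 peaks, near the middle on days 2 and 4 and low on day 6. Its peaks were 582, 1010 and 2265 bp wide, and its region overlapped an HDAC1 peak that ranked 2029. Hdac2 ranked 3595, 3597 and 2636 with no HDAC1 peak. Of 38 genes of class I HDAC complexes 14 had a region (36.8%, 23.4 to 52.7%), among them Gatad2a and Gatad2b of NuRD. Of 24 polycomb genes 8 did (33.3%, 18.0 to 53.3%), among them Ezh2, Jarid2 and Pcgf2. Among genes with any day 4 peak at the start, the shares were 40% for acetyltransferases and BET readers and 45.2% for class I HDAC complexes. They were 72.7% for polycomb genes and 45.4% for all protein-coding genes. Actb, Npm1, Myc and Lin28a had no region centred within 1 kb of the start. The region nearest Chd4, the NuRD helicase gene, had its midpoint 1063 bp from the start, beyond the 1 kb window, although its edge lay nearer.

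The highest-scoring regions far from protein-coding starts included long noncoding RNA genes. At chr19:5796785-5802647 (mm10) lay a region over Malat1, a nuclear noncoding RNA gene at chr19:5795690-5802672, which ranked 146 on day 2, 8 on day 4 and 37 on day 6, with widths of 2119, 5863 and 8616 bp. It overlapped an HDAC1 peak that ranked 173. At chr19:8722002-8725906 a region over Snhg1, a host gene of small nucleolar RNAs, ranked 7, 12 and 1. The next 3 were within gene bodies, with Setd5, Adgrl2 and Rgma as the nearest protein-coding starts, and ranked 253, 30 and 78, then 3584, 50 and 2027, then 11190, 105 and 4570. The region nearest Rgma also overlapped the long noncoding RNA gene LOC115486533.

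The promoters of marked genes were rich in CpG. RefSeq promoters of 300 bases could be matched for 3069 of the 3708 genes with a region at the start. Their median held 25 CpG dinucleotides and 63% G and C, against 22 and 62% for genes with other day 4 peaks only and 5 and 52% for genes with no day 4 peak. The share with an observed to expected CpG ratio of at least 0.6 was 90.0% (88.9 to 91.0%), against 83.7% (82.2 to 85.2%) for genes with a day 4 peak shared with day 2 only and 27.1% for genes with no day 4 peak.

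Of the 10 motifs searched, the ZBTB33 core had the largest ratio between these promoters and those with a day 4 peak shared with day 2 only. It was present in 145 of 3069 promoters with a region (4.72%, 4.03 to 5.53%), against 62 of 2454 with a day 4 peak shared with day 2 only (2.53%, 1.98 to 3.23%), 0.427% with no day 4 peak and 1.51% of all 17273 promoters. Among CpG-rich promoters the shares were 5.14% (4.38 to 6.03%), 2.82% (2.19 to 3.63%) and 1.19%. It was in 9 of 51 promoters of cytosolic ribosomal protein genes with a region (17.6%, 9.57 to 30.3%). The core of YY1 (AGATGGCGG), a zinc finger factor of housekeeping promoters, was in 4.14% (3.49 to 4.90%), against 3.22% (2.59 to 3.99%) with day 2 only and 1.59% of all promoters, and these intervals overlap. Motif matches are a description of letters, not of binding.

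For the ETS, NRF1 and GC box motifs the acetylated groups were close to each other and, over all promoters, above those with no day 4 peak. The ETS core was in 24.7% (23.2 to 26.3%), against 25.9% (24.2 to 27.6%) with day 2 only, 5.27% with no day 4 peak and 12.2% of all promoters. For NRF1 the shares were 7.69%, 7.46%, 1.58% and 3.65%, and for the GC box (GGGCGG, bound by Sp and Klf factors) 69.8%, 70.6%, 32.8% and 47.4%. TATA boxes were in 5.90% of promoters with a region, against 18.3% with no day 4 peak and 13.4% of all. Among CpG-rich promoters the GC box was no more frequent with a region, at 72.9% (71.2 to 74.5%), than with no day 4 peak, at 75.5% (73.8 to 77.0%), and TATA boxes were in 5.29% and 7.12%. The ETS core was in 26.0% and 10.6% of these, and the NRF1 core in 8.22% and 4.07%. The CCAAT box was in 36.8% (35.1 to 38.5%), below the 42.5% (40.6 to 44.5%) of promoters with day 2 only and 39.1% of all. The E-box of Myc (CACGTG) was in 11.7% and 7.96% of all, the cyclic AMP response element (TGACGTCA) in 4.24% and 2.36% of all, and the octamer of POU factors (ATGCAAAT) in 1.08% and 1.68% of all. Histone promoters differed from the rest, as the H1f5 sequence shows: of 27 with a region, 25 held a CCAAT box, 15 a TATA box and 7 the octamer. Of 23 DNA replication promoters 16 held a CCAAT box.

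**Figure D4:**
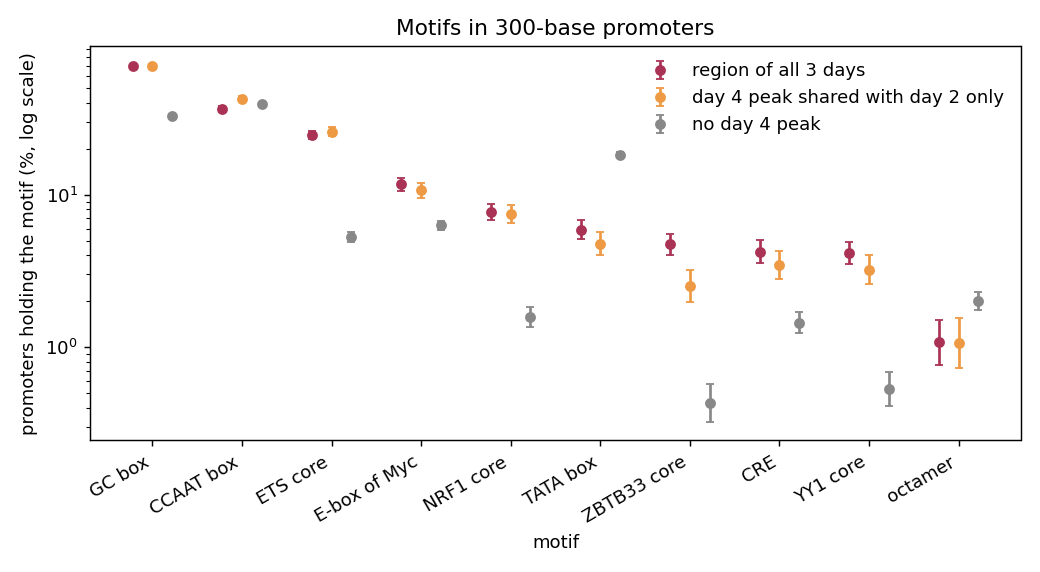
Share of 300-base promoters holding each of 10 motifs (vertical axis, percent on a log scale) for genes with a region of all 3 days, for genes with a day 4 peak shared with day 2 only and for genes with no day 4 peak; bars are 95% Wilson intervals. The ZBTB33 core is at 4.72%, 2.53% and 0.427%, while ETS, NRF1 and GC box shares nearly coincide in both acetylated groups.

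HDAC1, mapped on day 2 and not used by the rule, overlapped 661 regions (14.2%, 13.2 to 15.2%), against 670 other day 4 peaks (8.10%, 7.53 to 8.71%) and 10.3% of all day 4 peaks. Day 4 peaks shared with day 2 only had nearly the same share, 13.8% (12.7 to 14.9%), and those shared with day 6 only 4.77% (3.65 to 6.20%). The difference of 6.06 points (4.91 to 7.23) went with peak score. Within deciles of day 4 score, weighted to the regions, it was 0.401 points, and within deciles of width 1.65 points. In the highest-scoring decile HDAC1 overlapped 22.3% of regions and 21.3% of other peaks. Away from gene starts the shares were 12.4% (10.3 to 14.8%) and 3.27% (2.72 to 3.93%), and within deciles of score the difference there was 1.32 points. At gene starts, where most regions lie, the shares were 14.6% and 11.4%, a difference of 3.19 points that was -0.211 points within deciles of score.

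**Figure D5:**
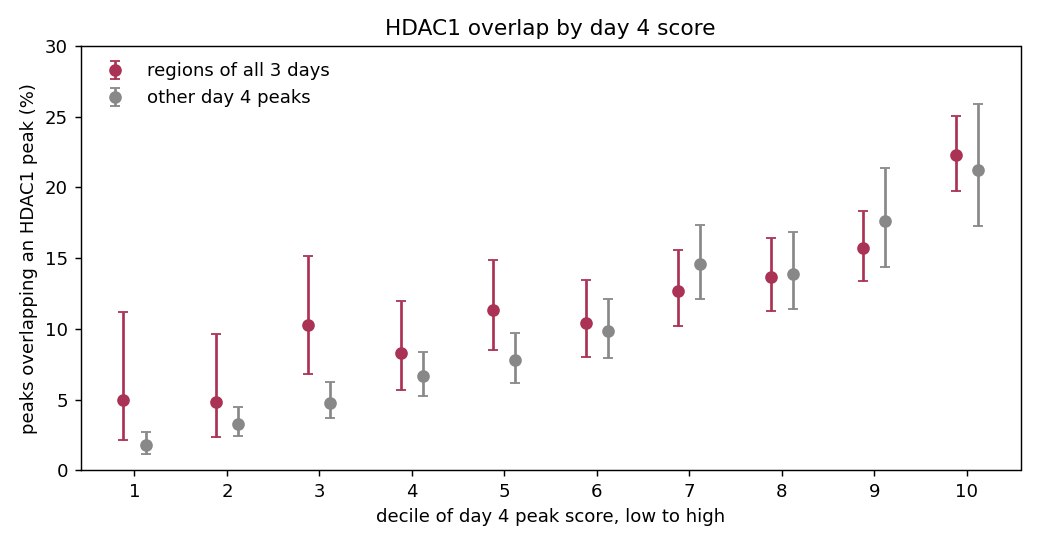
Share of day 4 peaks overlapping an HDAC1 peak (vertical axis, percent) by decile of day 4 score from low to high (horizontal axis), for regions of all 3 days and for other day 4 peaks, with 95% Wilson intervals. In both sets the share is higher at high scores than at low ones, with 22.3% and 21.3% in the highest decile, where the intervals overlap.

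Seen from the HDAC1 list, 678 of 5282 peaks (12.8%) lay on a region. In the highest-scoring decile of HDAC1 peaks the share was 8.70% (6.58 to 11.4%), and none of the 50 highest-scoring did, which allows up to 6%. Where HDAC1 lay within 1 kb of a listed start marked by a region, its midpoint was 112 bp downstream in the median (quartiles -89 and 397 bp, n = 557), close to the start and upstream of the middle of the acetylated stretch. Regions with HDAC1 were wider: for those with a single, unshared peak a day, medians were 1076, 1190 and 2094 bp on days 2, 4 and 6 with HDAC1 (348 regions) and 858, 987 and 1858 bp without it (2327 regions). Their ratio of day 6 to day 2 width was 1.83 with HDAC1 and 2.04 without. The median day 4 score was 207 with HDAC1 and 162 without. Since 1 shared bp counts as overlap, a wider region has more bases that an HDAC1 peak can touch. The part of this and of score in the width difference was not tested.

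Among marked genes, 5 of the 6 glycolysis genes with a region had HDAC1 on it (Aldoa, Gapdh, Pfkm, Pkm and the glucose transporter gene Slc2a1, the exception being Pgam1), against 643 of all 3708 genes with a region (17.3%). Regions of these 6 genes had a median day 4 width of 1978 bp and score of 478, against 1055 bp and 187 over all genes with a region. The part of width and score in the glycolysis share was not tested. The share was 13 of 37 for translation factors, 14 of 67 for cytosolic ribosomal proteins, 11 of 57 for splicing factors, 3 of 30 for histones and 10 of 90 for Zfp genes. Among the highest HDAC1 scores on regions were those at Nol8, a nucleolar protein gene, with HDAC1 rank 183, Pfn1, the actin-binding profilin, with rank 199, Kif15, a mitotic kinesin, with rank 209, and Mtg1, a mitochondrial GTPase, with rank 233. At Nol8 the H3ac peak ranked 3494 on day 2, 1706 on day 4 and 1980 on day 6. Sox2 and Sall4 both had HDAC1 on their region, with ranks 1340 and 664.

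The X chromosome held 194 day 4 peaks, of which 86 were regions of all 3 days (44.3%, 37.5 to 51.4%), the highest share of any chromosome, while the lowest was 32.3% on chromosome 8. Counted from day 6 the order was the opposite: 78 of 200 day 6 peaks on X (39%) lay under a region, the lowest share of any chromosome, and the next lowest was 62.1% on chromosome 13. None of the 86 overlapped an HDAC1 peak, which allows up to 3.49%, and none of the other X day 4 peaks did. The HDAC1 list held 24 peaks on X. The median day 4 score of regions on X was 106, against 147 to 190 on the autosomes, and HDAC1 overlap was lower in low-scoring than in high-scoring peaks, as the plot by decile shows. The part of score in the absence on X was not tested.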

How the data were processed

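H3ac and HDAC1 were mapped by ChIP-seq in 4 ChIP libraries, each with an input library; the labels gave target and day. The submitters' processing notes list Bowtie 0.12.8 and build mm10. Peaks carry names that start with MACS, a peak caller, whose version, cut-off and use of input the sources used here do not give. Each deposited list gave the coordinates of the peaks of 1 library and a score per peak, the authors' value on an unstated scale with a lowest value of 50. Read depth is unknown, so no interval covers it, and a region without a peak can still be acetylated.

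Peaks were compared by an overlap of 1 bp or more, with Python 3.11.15, numpy 2.4.6, pandas 2.3.3 and scipy 1.17.1. Genes and promoters came from RefSeq tables of GRCm38.p6, which shares the coordinates of mm10. Of 21627 protein-coding genes on chromosomes 1 to 19 and X, 17273 had a listed start, and for the others, which include all of chromosome 18, either end of the gene was used. Coordinates are 1-based. Where a region met more than 1 day 2 peak, their widths were summed and the best rank was used. Shares have 95% Wilson intervals, and a count of 0 is given with the share that 3 counts would make. No p-value was computed, since peaks and genes of 1 library are not replicates. The overlap and start steps were tested on simulated data.

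The members, the 28 gene lists, the 10 motifs and the rule for named genes were chosen with earlier results of these data known. The rule covered the 8 highest day 4 scores at starts, the 5 largest and 5 smallest ratios of day 6 to day 2 width, up to 3 best-ranked genes per list, the 5 widest on day 6, the 5 highest HDAC1 scores, the 5 highest scores more than 10 kb from a start, 20 candidates and the edge of the overlap rule. Other genes named, the printed promoters, the count of ratios of 5 or more, the split of promoters by day 2 the region at Hoxa2 and the comparison of gaps were chosen after their values were seen. Alternatives covered the overlap, score, list length, gene window and HDAC1 criteria. Peaks on other contigs were left out, and 1 gene that the rule names is not reported here.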

Additional observations from a re-analysis of the deposited data

How the results depend on the processing

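No paired analysis was possible because each target and day had 1 library. Requiring 200 bp or 50% of the shorter peak left 4566 and 4508 regions, and 4949 day 2 peaks or 3921 day 6 peaks met the rule when those lists were counted. Scores of 100 or more left 2088 regions, and the 5549 top peaks of each list left 2449. Under these 2 settings, in this order, 1800 and 2225 genes had a region at the start (main value 3708), 17.0% and 18.3% of regions overlapped HDAC1 (main 14.2%) against 14.2% of other peaks under either (main 8.10%), and median widths were 1076 and 1124 bp on day 2 (main 838.5), 1198 and 1236 bp on day 4 (main 1003) and 2428 and 2376 bp on day 6 (main 2148). The day 2 width was 857 bp with 200 bp shared and 862 bp with 50% shared.

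The share of regions at a start, 81.7%, was 40.5% within 0.5 kb (2030 genes), 94.2% within 2.5 kb, 91.4% with any base of the peak in the window and 71.5% when the outer ends of every gene replaced the listed starts. HDAC1 overlap of regions and other peaks was 12.6% and 7.05% with the HDAC1 midpoint inside, 20.4% and 11.9% within 1 kb, and 2.40% and 1.55% with HDAC1 scores of 100 or more. The difference of 6.06 points was 3.19 at gene starts, 0.401 weighted by score decile and 1.65 by width decile; at gene starts weighted by score decile it was -0.211. Of 50 values under alternatives, 30 moved outside the main value's 95% interval or, for numbers of regions and genes, by over 1.5 times, 20 did not, and 0 changed sign, the value of -0.211 not being among the 50; the cause was not tested. With 1 library a day, unknown depth and called peaks only, differences between days cannot be told apart from differences between libraries.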

Other observations

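Small nucleolar RNA genes, whose products guide the chemical modification of ribosomal RNA and are mostly cut from the introns of host genes, had a region of all 3 days more often than another day 4 peak, although few had either. Of 1340 snoRNA genes, 81 (6.04%) had such a region within 1 kb of a gene end, against 10 (0.746%) with another day 4 peak there. These 81 genes shared 57 regions, of which 20 stood at the start of a cytosolic ribosomal protein gene, so the 2 groups are partly the same regions. Of the 57, 24 overlapped a long noncoding RNA gene, 1 of them at a ribosomal protein start and 23 not, and these included the host genes Gas5, Zfas1, Dancr, Snhg1, Snhg5, Snhg12 and Snhg15. Gas5 ranked 187 on day 2, 197 on day 4 and 3 on day 6. Zfas1 ranked 76, 258 and 8, and Snhg5 ranked 315, 557 and 60. Of the 57 regions, 43 (75.4%) were in the top 10% of the day 4 list, against 946 of all 4670 regions (20.3%).

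For the other classes of RNA gene the order of the gene counts was the opposite, but there were 8273 other day 4 peaks and only 4670 regions. Regions stood at 464 of 12697 lncRNA genes (3.65%), against 723 (5.69%) with another day 4 peak. For tRNA genes the numbers were 60 and 106 of 408, and for miRNA genes 39 and 61 of 1228. Counted as shares of peaks, 11.1% of regions and 9.59% of other day 4 peaks stood at a lncRNA gene. The shares were 0.921% and 0.617% for miRNA genes and 0.878% and 0.979% for tRNA genes. The hairpins of 24 miRNA genes lay on 23 regions, among them Mirlet7i on chromosome 10, Mir130a on chromosome 2 and Mir219a-1 on chromosome 17. The midpoint of the region at Mir219a-1 is 440 bp from the start of Ring1. Genes with a region at the start had a median length of 24422 bp, against 22082 bp for genes with other day 4 peaks only and 13953 bp for genes with none.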
